A study of Mus musculus with 8 samples.

Results

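The caveolins and cavins are the proteins that build caveolae, and the 6 genes described here are Cav1, Cav2, Cav3, Cavin1, Cavin2 and Cavin3, measured in the aorta of mice after deletion of serum response factor (Srf) in smooth muscle. Every probe set of the array whose annotation names exactly 1 of these symbols was taken, which gave 11 probe sets of 45037, for 6 of the 18193 genes that the table names. Cavin1, Cavin2 and Cavin3 are known in older annotations as Ptrf, Sdpr and Prkcdbp. The mutants had the genotype SRF-flex2neo -SM22CreERT2ki/+, in which Srf is floxed and 1 allele of Tagln, whose protein is SM22 of smooth muscle, holds a Cre that tamoxifen switches on. Their littermate controls are labelled SRF-flex2neo, with no Cre named, so the mutants differ from them both in the deletion and in the Cre allele. The mice were 4 months old. Mutants and controls alike were given 1 mg of tamoxifen into the peritoneum for 3 days, and the aorta was taken 8 days later. There were 8 Affymetrix arrays, 4 per group, and the titles number 2 sets: set 1 holds mutants 1 and 2 and controls 1 and 2, and set 2 holds mutants 3 and 4 and controls 3 and 4. What a set stands for is not given. Nor is it stated that every array came from its own mouse, so a p-value here weighs a difference against the scatter of these 8 arrays, part of which may be technical.

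Caveolae are flask-shaped pits of the plasma membrane and are abundant in smooth muscle cells, endothelial cells and fat cells. Caveolins are inserted in the membrane and form oligomers, and cavins are cytosolic proteins that assemble on them as an outer coat. In arteries, caveolae hold endothelial nitric oxide synthase in check and gather receptors and ion channels of smooth muscle. SRF is a transcription factor that binds the CArG box in the control regions of many contractile and cytoskeletal genes.

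RefSeq promoter windows of the GRCm38.p6 build were found for Cav1, Cav2, Cav3, Cavin1 and Cavin2. They span the 250 bases before each annotated start, in 7 windows, since Cav1 and Cavin1 each have 2 starts. Because SRF is the deleted factor, its motif was searched in all 7 windows. Those printed are of Cav3, the caveolin with the largest difference, of Cavin2, the cavin on the higher side in mutants, and of the upstream start of Cav1. Capitals mark CAGCTG in Cav3, CCAAT in Cavin2, and in Cav1 the letters TTTATA and CCGCCC, which read TATAAA and GGGCGG on the opposite strand.
Cav3, chr6:112459255-112459504, plus strand: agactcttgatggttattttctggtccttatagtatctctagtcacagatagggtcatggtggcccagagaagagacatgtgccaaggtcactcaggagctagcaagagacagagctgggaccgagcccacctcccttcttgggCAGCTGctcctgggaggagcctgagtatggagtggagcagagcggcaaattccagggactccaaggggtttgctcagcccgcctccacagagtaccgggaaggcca
Cavin2, chr1:51288876-51289125, plus strand: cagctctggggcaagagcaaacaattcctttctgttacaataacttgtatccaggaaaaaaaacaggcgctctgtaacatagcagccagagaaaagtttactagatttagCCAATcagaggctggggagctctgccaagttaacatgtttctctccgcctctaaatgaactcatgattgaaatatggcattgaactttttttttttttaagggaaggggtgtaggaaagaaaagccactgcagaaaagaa
Cav1, chr6:17306085-17306334, plus strand: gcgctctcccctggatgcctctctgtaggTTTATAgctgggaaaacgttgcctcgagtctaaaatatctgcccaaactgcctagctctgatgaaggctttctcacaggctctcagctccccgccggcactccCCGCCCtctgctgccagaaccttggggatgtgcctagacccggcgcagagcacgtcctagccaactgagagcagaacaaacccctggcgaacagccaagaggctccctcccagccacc

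No CArG box, with up to 1 mismatch allowed and both strands read, lay in any of the 7 windows. A match with no mismatch was found in 1.47% of the 32851 windows of this length in the table, and a match with up to 1 mismatch in 18.6%. The E box CAGCTG, the CCAAT box, the GC box GGGCGG and the TATA box TATAAA, none of which overlap each other in these windows, were also searched on both strands. CAGCTG, found in 13.0% of all windows, lay 106 to 101 bases before the start of Cav3. CCAAT, found in 33.8%, lay 140 to 136 bases before the start of Cavin2, 182 to 178 before that of Cav2, and in both overlapping windows of Cavin1. GGGCGG, found in 32.7%, lay in the window of Cav2 and, on the opposite strand, in those of Cavin1 and 118 to 113 bases before the upstream start of Cav1. TATAAA, found in 12.4%, lay on the opposite strand 221 to 216 bases before that start. The guanine and cytosine content was 40.4% in the Cavin2 window, 56.0% in that of Cav3 and 59.6% in that of Cav1. A match describes these letters only, and no match says only that they are not in this window.

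Mutant 2 stood apart from the other arrays. Over the 27029 probe sets tested, its correlation with the other 7 arrays was 0.926 to 0.952, while the other arrays correlated at 0.985 to 0.994 within a set and at 0.965 to 0.975 between sets. Mutant 2 also had the highest mean of the nerve markers, at 10.11 on the log2 scale, against 3.65 to 3.83 in the other mutants and 3.02 to 3.76 in the controls. Signal of aortic smooth muscle was strong on every array: Tagln averaged 15.03 ± 0.11 in mutants and 15.32 ± 0.04 in controls (SD, n = 4 each). Its difference of -0.29 (SE 0.05) had an adjusted p = 0.376 in limma, and 1 of its alleles holds the Cre in mutants, the effect of which was not tested. The main Srf probe set averaged 10.10 ± 0.38 in mutants and 10.30 ± 0.17 in controls (SD, n = 4 each), a difference of -0.20 with an SE of 0.19 and an adjusted p = 0.686 in limma. Where that probe set lies relative to the deleted part of Srf is not given, so it does not check the deletion. Without mutant 2, the differences described next were -0.09 for Cav1 and -0.16 for Cav2, and those of the other members are given with each.

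None of the 6 genes passed the test between mutant and control aortas. Cav3 and Cavin3 were lower in mutants by 0.80 and 0.40 on the log2 scale, Cavin2 was higher by 0.37 to 0.42 over its 3 probe sets, and Cav1, Cav2 and the main probe set of Cavin1 lay within 0.19 of the controls. The test was limma with genotype and set as terms over all probe sets that passed a filter on dim signal, with Benjamini-Hochberg adjustment. The filter removed the dimmest 40% by mean, and 10 of the 11 member probe sets, covering all 6 genes, passed it. At an adjusted p under 0.05, 0 of the 10 were called, and 0% of all 27029 were called. At an unadjusted p under 0.05, 5 of the 10 lay past the threshold, where 9.55% of all tested did. That count was 1 without control 1, where 5.28% of all tested lay past it, and 2 without mutant 2, without control 2 or without control 4, where 8.60%, 6.54% and 7.05% did. Of the 5, 3 were lower in mutants (Cav2, Cav3 and Cavin3), where 5.05% of all tested were, and 2 were higher, both of Cavin2, where 4.50% of all tested were. Since the 3 probe sets of Cavin2 measure 1 gene and all probe sets share the same 8 arrays, these are not independent counts. Over the 10 probe sets, 7 were lower and 3 higher in mutants, where 60% of all tested were lower. Their median difference was -0.155, beside a median of -0.035 over all tested. In whole-tissue RNA, fewer cells of a type and less RNA per cell cannot be told apart.

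**Figure D1:**
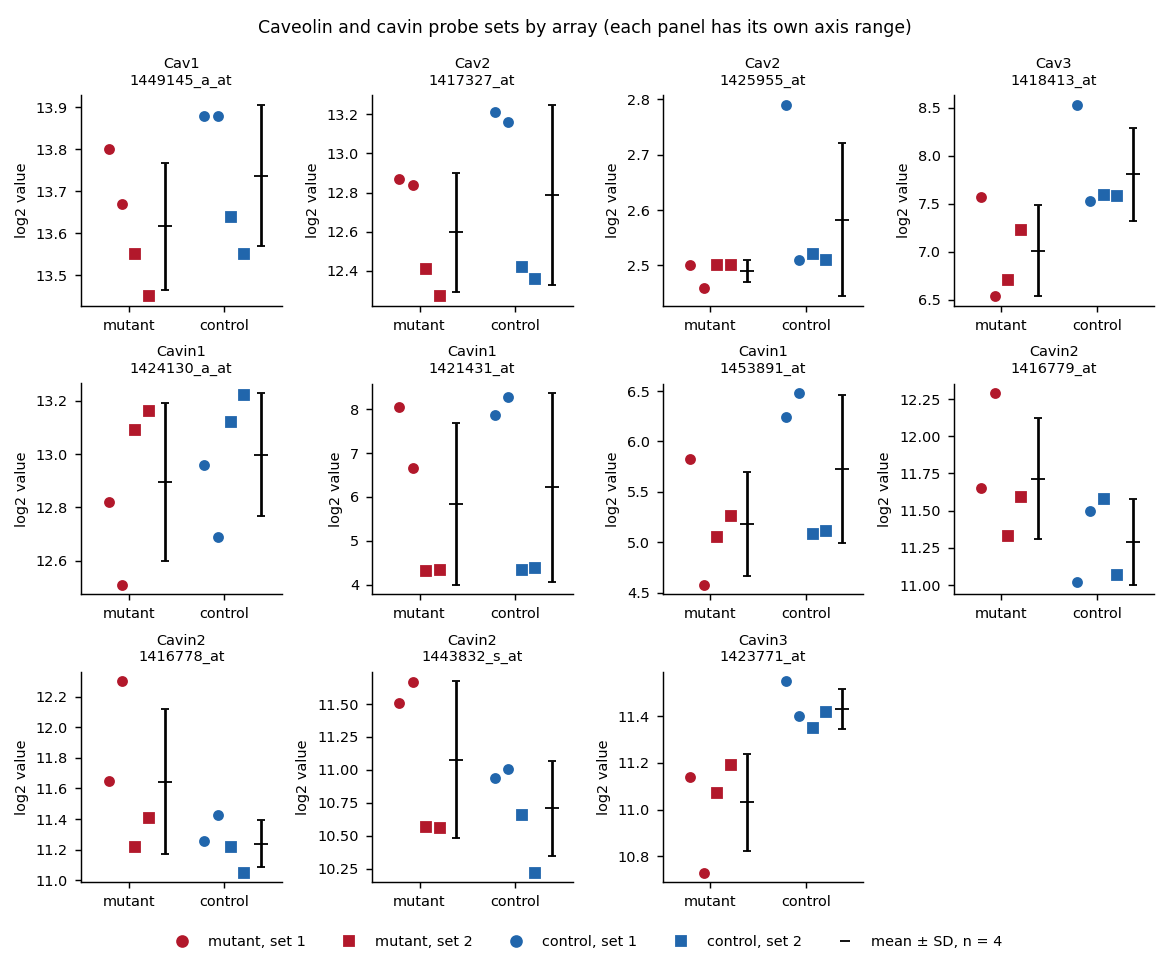
Deposited log2 values of the 11 caveolin and cavin probe sets in each array, mutants left and controls right in each panel, with circles for set 1, squares for set 2 and bars for the mean ± SD (n = 4). Axis ranges differ between panels. For Cavin3 the highest mutant (11.19) lies under the lowest control (11.35), and for the Cavin1 probe set 1421431_at the sets stand far apart.

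Cav1 encodes the caveolin that caveolae of smooth muscle, endothelium and fat cannot form without. Its probe set 1449145_a_at read 13.80, 13.67, 13.55 and 13.45 in mutants 1 to 4, against 13.88, 13.88, 13.64 and 13.55 in controls 1 to 4. In both sets the 2 mutants lay under or level with the lower control, and the groups overlapped across sets, with set 2 below set 1. The means were 13.62 ± 0.15 in mutants and 13.74 ± 0.17 in controls (SD, n = 4 each). The difference of -0.12 (SE 0.06, 95% confidence interval -0.25 to 0.01) had an adjusted p = 0.552 in limma, so a fall of more than 0.25 lay outside the interval. Cav1 was lower in the mutants of either set, with differences of -0.145 in set 1 and -0.095 in set 2. The difference of set 2 from set 1, -0.26 with genotype in the model, was larger than that of the genotype and passed the test in limma (adjusted p = 0.0195).

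Cav2 encodes a caveolin that forms mixed oligomers with the Cav1 protein and depends on it to reach the plasma membrane. In RefSeq it is the neighbour of Cav1, with 0 genes between them. The probe set 1417327_at read 12.87, 12.84, 12.41 and 12.27 in mutants 1 to 4, against 13.21, 13.16, 12.42 and 12.36 in controls 1 to 4. Both mutants of set 1 were below both controls of that set, whereas the 4 arrays of set 2 lay within a narrow band and mutant 3 exceeded control 4. Mutants averaged 12.60 ± 0.30 and controls 12.79 ± 0.46 (SD, n = 4 each). The difference was -0.19 (SE 0.07, 95% confidence interval -0.37 to -0.01) with an adjusted p = 0.51 in limma. It was -0.33 in set 1 and -0.05 in set 2. The test of that change between sets gave 0.28 (SE 0.11) and an adjusted p = 0.824 in limma. Set 2 was lower than set 1 by a larger amount, -0.66, and this passed the test in limma (adjusted p = 0.00211).

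A second Cav2 probe set, 1425955_at, was too dim to be tested. It read 2.50, 2.46, 2.50 and 2.50 in mutants, against 2.79, 2.51, 2.52 and 2.51 in controls. The groups did not overlap, but 7 of the 8 values lay between 2.46 and 2.52, close to the bottom of the scale, and control 1 stood apart from them. With no filter its difference was -0.09. The array medians, over all probe sets, were 3.72 to 3.98.

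Cav3 encodes the caveolin of striated muscle, which smooth muscle also makes. Its probe set 1418413_at read 7.57, 6.54, 6.70 and 7.23 in mutants 1 to 4, against 8.53, 7.53, 7.59 and 7.58 in controls 1 to 4. Controls 2, 3 and 4 lay together and control 1 stood above them, while the mutants were spread more evenly. The groups overlapped only by mutant 1, at 7.57, which lay above control 2, at 7.53. The means of 7.01 ± 0.48 in mutants and 7.81 ± 0.48 in controls (SD, n = 4 each) differed by -0.80, or 1.74-fold lower in mutants. The SE was 0.31, the 95% confidence interval -1.52 to -0.07 and the adjusted p = 0.508 in limma. An exact two-sided permutation test that exchanged the 8 arrays without regard to set gave p = 0.0571, where the smallest it can give is 0.0286. With arrays exchanged only within a set, which was added after seeing the data, the exact permutation p = 0.1111, where the smallest is 0.0556. Mutants were lower in both sets, with differences of -0.975 in set 1 and -0.62 in set 2. Leaving out 1 array at a time gave differences between -0.97, without mutant 1, and -0.56, without mutant 2.

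Heart and skeletal muscle also make Cav3, so markers of striated muscle were set beside it. The mean of the 11 tested markers was 4.91 to 8.03 in mutants and 5.12 to 8.62 in controls, with 2 higher and 9 lower in mutants and a median difference of -0.17. The list was at 4.91 to 6.10 in set 1 and 7.39 to 8.62 in set 2. The difference of set 2 from set 1 for Cav3 was -0.27 and did not pass the test (adjusted p = 0.541 in limma). The part of striated muscle in the Cav3 values was not tested. The skeletal markers Myh1 and Tnnt3 were too dim to be tested.

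Cavin1 encodes the cavin that every caveola needs, and 3 probe sets measure it. The brightest, 1424130_a_at, read 12.82, 12.51, 13.09 and 13.16 in mutants 1 to 4, against 12.96, 12.69, 13.12 and 13.22 in controls 1 to 4. The values followed the set more than the genotype, with all 4 arrays of set 2 above all 4 of set 1. Mutants averaged 12.90 ± 0.30 and controls 13.00 ± 0.23 (SD, n = 4 each). Their difference of -0.10 (SE 0.09, 95% confidence interval -0.33 to 0.12) had an adjusted p = 0.682 in limma and shrank to -0.03 without mutant 2. Set 2 was higher than set 1 by 0.40 (adjusted p = 0.0255 in limma).

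The other Cavin1 probe sets were dimmer. The probe set 1421431_at read 8.04, 6.67, 4.32 and 4.33 in mutants 1 to 4, against 7.87, 8.28, 4.34 and 4.39 in controls 1 to 4. All 4 arrays of set 1 were more than 2 log2 units above every array of set 2. The values of set 2 were not far above the array medians of 3.72 to 3.98. Set 2 was lower by 3.37 (adjusted p = 0.0012 in limma), a direction opposite to that of the brightest probe set of the same gene. Only 44 of the 27029 tested probe sets, 0.163%, had a difference between sets as large. The genotype difference of this probe set was -0.38 (SE 0.31, adjusted p = 0.668 in limma), and without mutant 2 it was -0.04.
The probe set 1453891_at read 5.83, 4.58, 5.05 and 5.26 in mutants, against 6.24, 6.48, 5.08 and 5.11 in controls. It was the only tested member probe set whose difference turned between sets, at -1.155 in set 1 and 0.06 in set 2. Set 2 differed from set 1 by -0.66, which did not pass (adjusted p = 0.207 in limma), and mutant 2 of set 1 lay under every array of set 2. The genotype difference over both sets was -0.55 (SE 0.35, adjusted p = 0.606 in limma), and -0.18 without mutant 2. Averaged over the 3 probe sets, Cavin1 was lower in mutants by 0.34, beside the 0.10 of the brightest one, so its size depended on the probe set chosen.

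Cavin2 encodes the cavin that bends membrane and helps caveolae form in endothelium of lung and fat. Its brightest probe set, 1416779_at, read 11.65, 12.29, 11.33 and 11.59 in mutants 1 to 4, against 11.02, 11.50, 11.58 and 11.07 in controls 1 to 4. Mutant 2 was the highest array, and controls 2 and 3 lay among the mutants. The means were 11.72 ± 0.41 in mutants and 11.29 ± 0.29 in controls (SD, n = 4 each), a difference of 0.42 (SE 0.22, 95% confidence interval -0.10 to 0.95) with an adjusted p = 0.573 in limma. The second probe set, 1416778_at, read 11.65, 12.30, 11.22 and 11.41 in mutants, against 11.26, 11.43, 11.22 and 11.05 in controls. Its difference was 0.41 (SE 0.17, adjusted p = 0.519 in limma). The third, 1443832_s_at, read 11.51, 11.67, 10.57 and 10.56 in mutants, against 10.94, 11.01, 10.66 and 10.22 in controls. In that probe set both mutants of set 1 exceeded all 4 controls, while those of set 2 lay between controls 3 and 4. Its difference was 0.37 (SE 0.14, adjusted p = 0.497 in limma).

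The 3 Cavin2 probe sets shared this pattern over the sets. In set 1 mutants exceeded controls by 0.71, 0.63 and 0.615, in the order above, and in set 2 by 0.135, 0.18 and 0.125. The change between sets had an adjusted p = 0.824 in limma for each. Leaving out mutant 2 lowered the differences to 0.24, 0.23 and 0.29. Endothelial and fat markers, from cell types rich in Cavin2, were set beside it. The mean of the 12 endothelial markers was 7.66 to 9.71 in mutants and 7.05 to 7.93 in controls. All 12 were higher in mutants, where 60% of all tested probe sets were lower. Their median difference was 1.42 in set 1 and 0.54 in set 2. The mean of the 10 tested fat markers was 8.32 to 11.67 in mutants and 8.18 to 9.30 in controls, with a median difference of 2.55 in set 1 and -0.47 in set 2. Mutant 2, the array with the highest Cavin2, had the highest value of both lists. Leukocyte markers had median differences of 1.945 in set 1 and 0.435 in set 2, and fibroblast markers 1.40 and 0.85. The part of these lists in the Cavin2 difference was not tested.

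Cavin3 encodes a cavin that binds protein kinase C delta. Its probe set 1423771_at read 11.14, 10.73, 11.07 and 11.19 in mutants 1 to 4, against 11.55, 11.40, 11.35 and 11.42 in controls 1 to 4. All 4 mutants lay below all 4 controls, and mutant 2 was the lowest. Mutants averaged 11.03 ± 0.21 and controls 11.43 ± 0.09 (SD, n = 4 each), a difference of -0.40, or 1.32-fold lower in mutants. With an SE of 0.11 and a 95% confidence interval of -0.66 to -0.13, the adjusted p = 0.442 in limma did not pass. The exact two-sided permutation test without regard to set gave p = 0.0286, the smallest it can give. Within sets the exact permutation p = 0.0556, which is the smallest that 36 arrangements can give and cannot pass 0.05. Cavin3 was the only tested member probe set whose groups did not overlap, 1 of 10, where 3.00% of all tested did not. Its difference was -0.54 in set 1 and -0.255 in set 2, and -0.29 without mutant 2. Set 2 differed from set 1 by 0.05 (adjusted p = 0.746 in limma). The mean of the smooth muscle markers was 13.08 to 13.18 in mutants and 13.36 to 13.52 in controls, and separated the groups likewise. All 10 markers were lower in mutants, where 60% of all tested probe sets were, with a median difference of -0.26. At an adjusted p under 0.05 in limma, 0 of the 10 passed. Tagln, of which 1 allele holds the Cre in mutants, is 1 of the 10, and others are contractile genes, a kind that SRF binds. Fewer smooth muscle cells and less RNA of these genes per cell therefore cannot be told apart. The means of 2 other lists separated the groups too, both higher in mutants. Leukocyte markers were at 6.45 to 7.70 in mutants and 5.49 to 6.38 in controls. For fibroblast markers the lowest mutant, at 10.978, lay just above the highest control, at 10.976. The part of these lists in the Cavin3 difference was not tested.

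**Figure D2:**
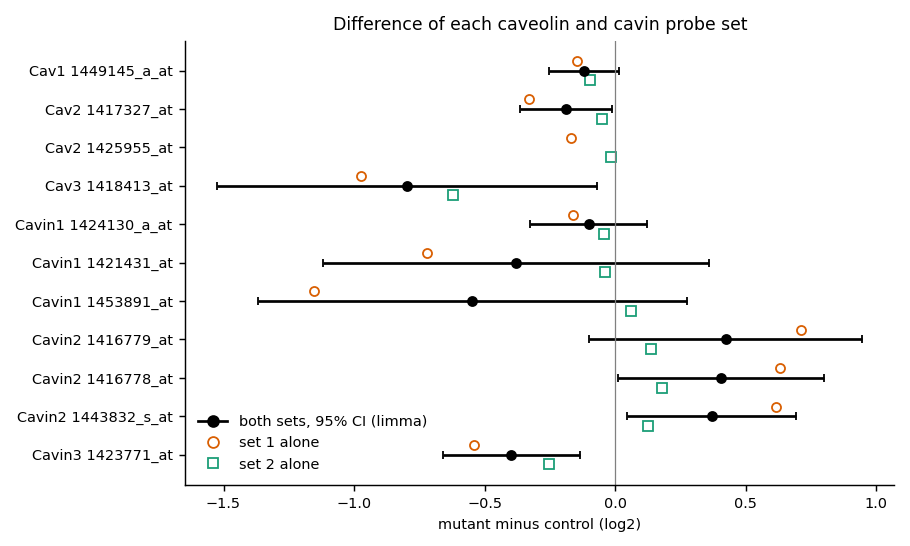
Difference of each member probe set, mutant minus control in log2 units on the x axis: black points with bars are the limma estimate over both sets with its 95% confidence interval, open circles are set 1 alone and open squares set 2 alone. The dim Cav2 probe set has no estimate. In every member probe set the set 1 difference is farther from 0 than that of set 2, and for Cavin1 1453891_at the signs differ. The share of all probe sets with this pattern was not computed.

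The genotype differences of the members were farther from 0 in set 1 than in set 2 throughout. The share of all tested probe sets with this pattern was not computed. With 2 arrays against 2, 42.1% of all tested did not overlap in set 1 and 31.1% in set 2. The median differences of the smooth muscle, endothelial, fat, fibroblast, leukocyte and nerve markers were also farther from 0 in set 1. That of the striated muscle markers was not. Of the 10 tested probe sets, 9 had the same sign in both sets, where 55.1% of all tested did. The 9 include the 3 probe sets of Cavin2, which measure 1 gene. They also include Cavin1 1421431_at, whose set 2 difference was only -0.04 among values of 4.32 to 4.39. Mutant 2 belongs to set 1. The test of the change between sets called 0 of the 10, where 0.0518% of all tested were called, and 1 of the 10, Cav2 1417327_at, lay at an unadjusted p under 0.05, where 5.12% of all tested did. Without mutant 1, limma called the Cavin1 probe sets 1421431_at and 1453891_at, with 10.2% of all probe sets tested. Between sets, with genotype in the model, 5 of the 10 passed an adjusted p under 0.05 in limma, where 21.4% of all tested did. They were Cav1, Cav2, Cavin1 1424130_a_at, Cavin1 1421431_at and Cavin2 1443832_s_at. Cavin1 1424130_a_at was the one of these that was higher in set 2.

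Other genes of the caveola were taken from a list of 16 coat, neck and raft genes, of which 13 were tested. In mutants 7 were higher and 6 lower, with a median difference of 0.03, beside -0.035 over all tested. At an adjusted p under 0.05, 0 passed in limma, and at an unadjusted p under 0.05, 3 were higher and 3 lower, or 46.2%, where 9.55% of all tested lay past it. Fyn, a kinase of the Src family that is bound to lipid rafts, read 7.45, 8.49, 7.91 and 7.79 in mutants, against 6.39, 6.27, 7.41 and 7.16 in controls. Every mutant exceeded every control, by a mean of 1.10 (SE 0.30, adjusted p = 0.433 in limma). Ror1, a receptor known to hold cavin and caveolin together, read 9.67, 9.34, 9.59 and 9.42 in mutants, against 10.32, 10.06, 9.76 and 9.87 in controls. Its groups did not overlap either, with a difference of -0.50 (SE 0.12, adjusted p = 0.398 in limma).
Bves, a membrane protein of muscle that binds Cav3, read 5.28, 4.37, 4.89 and 5.10 in mutants, against 6.52, 5.92, 5.46 and 5.77 in controls. It was lower in every mutant than in every control, by a mean difference of -1.01 (SE 0.28, adjusted p = 0.438 in limma). Plvap, the endothelial protein of the diaphragm across the neck of a caveola, differed by 0.68 (SE 0.25, adjusted p = 0.495 in limma) with overlapping groups, and by 1.195 in set 1 and 0.165 in set 2. Cavin4, the muscle cavin, was too dim to be tested, at a mean of 2.59 in mutants and 2.58 in controls. Ehd2, the ATPase of the caveola neck, differed by -0.12 (SE 0.09, adjusted p = 0.636 in limma) and is named here after its values were seen. So is Src, a kinase of the same family as Fyn, which was lower in every mutant than in every control. Its difference was -0.38 (SE 0.14, adjusted p = 0.502 in limma). Of the 13 tested genes, 4 had groups that did not overlap (Fyn, Ror1, Bves and Src), where 3.00% of all tested did not.

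Receptors, channels and enzymes reported in caveolae formed a second list of 20 genes, of which 17 were tested. In mutants 9 were higher and 8 lower, with a median difference of 0.005. None passed an adjusted p under 0.05 in limma. At an unadjusted p under 0.05, 1 was higher and 3 lower, or 23.5%, where 9.55% of all tested lay past it. Nos3, the endothelial nitric oxide synthase that Cav1 holds inactive, read 9.36, 9.52, 8.48 and 8.75 in mutants, against 7.79, 7.88, 8.14 and 7.88 in controls. All mutants were above all controls, by a mean of 1.11 (SE 0.21, adjusted p = 0.376 in limma), and Nos3 is also 1 of the 12 endothelial markers described above. Kcnma1, the pore of the large-conductance calcium-activated potassium channel, read 10.32, 10.10, 10.56 and 10.70 in mutants, against 10.69, 10.88, 10.98 and 10.95 in controls. Its difference was -0.46 (SE 0.09, adjusted p = 0.376 in limma), and mutant 4 lay just above control 1. Kcnmb1, the smooth muscle subunit of the same channel, differed by -0.62 (SE 0.25, adjusted p = 0.51 in limma). Insr, the insulin receptor, differed by -0.19 (SE 0.07, adjusted p = 0.502 in limma). Of the 17 tested genes, 1, Nos3, had groups that did not overlap, where 3.00% of all tested did not.

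**Figure D3:**
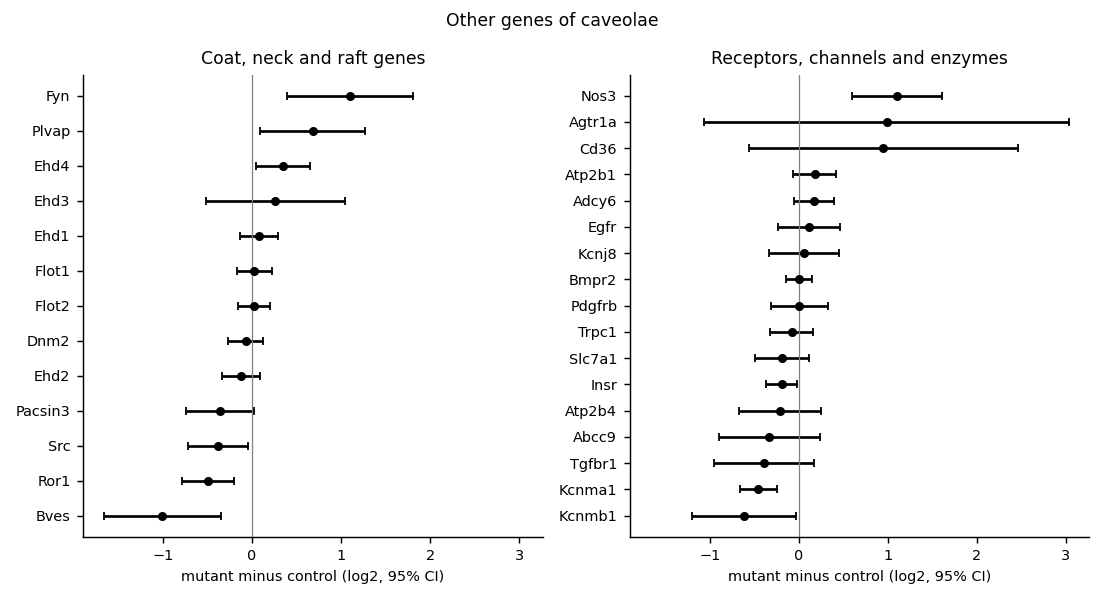
Difference of the 13 tested coat, neck and raft genes (left) and of the 17 tested receptors, channels and enzymes (right), mutant minus control in log2 units on the x axis, as points with the 95% confidence interval of limma. Bves (-1.01) and Fyn (1.10) are the ends of the left panel, and Kcnmb1 (-0.62) and Nos3 (1.11) those of the right.

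Markers of cell types that make caveolae, or that surround an aorta, are given for the whole of each list. Fibroblast markers had a mean of 10.978 to 11.317 in mutants and 9.586 to 10.976 in controls, and all 10 were higher in mutants. Leukocyte markers had a mean of 6.45 to 7.70 in mutants and 5.49 to 6.38 in controls, with all 9 tested higher and Itgam, Cd3e and Cd79a too dim to be tested. Of the 10 tested fat markers, 9 were higher in mutants, and Lep was too dim. Beside these counts, 60% of all tested probe sets were lower in mutants. In each of the 7 marker lists, 0 genes passed an adjusted p under 0.05 in limma. At an unadjusted p under 0.05 there were 6 of 10 smooth muscle, 8 of 12 endothelial, 9 of 10 fibroblast and 8 of 9 leukocyte markers, and 0 of the fat, striated muscle and nerve markers. Of all probe sets tested, 9.55% lay past that threshold. Cav1, which smooth muscle, endothelium, fibroblasts and fat all express, was lower by 0.12 in arrays where the mean of the smooth muscle markers was lower and those of endothelium and fibroblasts were higher. The fat markers had a median difference of 2.55 in set 1 and -0.47 in set 2, while Cav1 was lower in both sets. What part these lists have in the members' values was not tested.

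**Figure D4:**
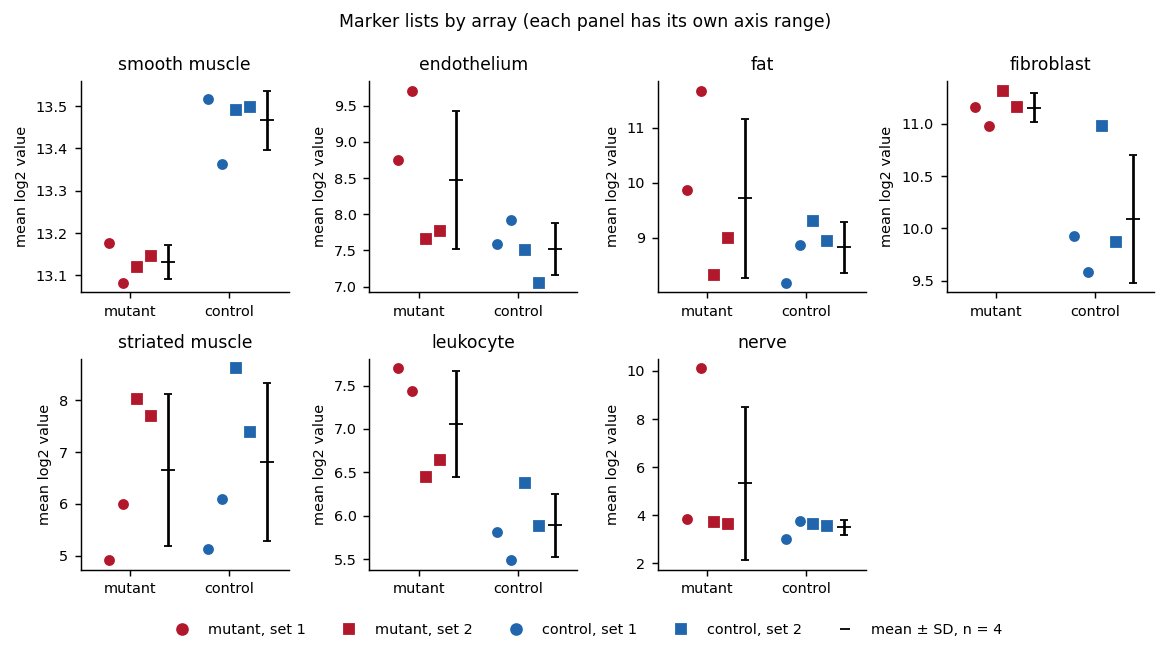
Mean log2 value of the tested genes of 7 marker lists in each array, mutants left and controls right, with circles for set 1, squares for set 2 and bars for the mean ± SD (n = 4). The smooth muscle list does not overlap between the groups (13.08 to 13.18 in mutants, 13.36 to 13.52 in controls). Nor does the leukocyte list (6.45 to 7.70 in mutants, 5.49 to 6.38 in controls). The fibroblast list is separated only narrowly (lowest mutant 10.978, highest control 10.976). Mutant 2 is the highest array for endothelium (9.71), fat (11.67) and nerve (10.11).

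The genes most like Cav1 and Cavin1 over the 8 arrays were sought among 12170 genes by the root mean square difference of the log2 values after each was centred on its own mean. For Cav1 they were Sem1, Ewsr1, Dpy19l4, Oaz2 and Ntmt1, at 0.04 to 0.05, beside a spread of 0.15 for Cav1 itself and a median of 0.26 over all candidates. For Cavin1, through its brightest probe set, they were Edem3, Zkscan14, Fyco1, Itch and Nup214, at 0.04 to 0.05, beside a spread of 0.24 for Cavin1 itself and a median of 0.30. These profiles carry the difference between sets and rest on the same 8 arrays.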

How the data were processed

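Aortic RNA of 4 mutant and 4 control samples was measured on Affymetrix mouse arrays, and groups and sets were taken from the labels. From each sample 2 ug of total RNA, extracted with a fibrous tissue kit, was made into biotinylated cRNA, as the labels' protocols state. The authors deposited log2 values, 1 per probe set and array. GCOS is named in the submitters' processing notes, and how values were summarized and normalized was not given in the sources used here. Values were used as deposited, and the number of arrays limits their precision.

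Of 45037 probe sets, 34945 had 1 gene symbol in the platform annotation, 932 several and 9160 none. Groups were compared with limma 3.58.1 (R 4.3.3) on a model of genotype plus set, with the prior variance following mean signal, over the 27029 probe sets left after the dimmest 40% were removed. Its p-values are two-sided and were adjusted by Benjamini and Hochberg's method over all 27029. SE is limma's moderated standard error, and intervals cover 95%. A gene's main probe set is its brightest by mean. Named beside the members were the 4 genes with the smallest p of each caveola list and the 5 genes most like Cav1 and Cavin1; Pacsin2, Ednra and Htr2a had no probe set in the annotation used. Alternatives were other filters, scalings and variance models, array weights, no set term, each set alone, each array left out and the mean over a gene's probe sets. The procedure was tested on simulated data, and figures were drawn with Python 3.11.15. The members, lists and tests were chosen with earlier results of these data known.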

Additional observations from a re-analysis of the deposited data

Results flagged for a closer look

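Each member probe set was examined in each group of 4 arrays for a single value far from the other 3. A value was listed where its gap to the nearest of the others, divided by the range of the group, exceeded Dixon's 95% critical value for 4 values. Of 22 groups examined, 3 gave such a value. For normally distributed values chance gives about 1 in 20, and the share over all probe sets of the table was not computed. Control 1 of Cav3 read 8.53, where the other controls read 7.53 to 7.59, a ratio of 0.94. Without it, the difference of Cav3 was still lower in mutants, by a mean of 0.56 on the log2 scale. Mutant 2 of the dim Cav2 probe set 1425955_at read 2.46, where the other mutants all read 2.50, a ratio of 1. Control 1 of that probe set read 2.79, where the other controls read 2.51 to 2.52, a ratio of 0.964. That probe set lay close to the bottom of the scale and was not tested between groups.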

How the results depend on the processing

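The differences of Cav1, Cav2, Cav3, Cavin1, Cavin2 and Cavin3 kept their sign and stayed short of an adjusted p under 0.05 in all 19 alternatives run for each gene, and 0 member probe sets passed it in any of the 18 alternatives for that count. The number of member probe sets at an unadjusted p under 0.05, 5 as reported, is given here with the share of all probe sets past it. It was 2 with no set term (4.73%), 3 with no mean-variance trend (9.48%), 3 in set 1 alone (7.11%), 2 in set 2 alone (5.49%), and 1 to 4 when 1 array was left out (5.28% to 10.9%). It was 1 without control 1, 2 without mutant 2, control 2 or control 4, and 3 without mutant 1 or mutant 4. The number whose groups do not overlap, 1 as reported, was 2 with no filter on dim probe sets (1.86% of all), and 1 to 2 when 1 array was left out (4.04% to 7.17%). With 2 arrays against 2 it was 7 in set 1 alone (42.1%) and 3 in set 2 alone (31.1%). Between sets, the change of the genotype difference was called for 0 member probe sets as reported and for 0 to 2 when 1 array was left out. The 2 came without mutant 1, where mutant 2 is the only mutant of set 1 and is assumed to vary like the other arrays. They were Cavin1 1421431_at at 1.365 and 1453891_at at 1.84. Without control 1, 6 partner and signalling genes lay past an unadjusted p under 0.05, where 5.28% of all tested did. As reported there were 10, where 9.55% of all tested did. Over the whole table, 10 probe sets passed an adjusted p under 0.05 with array weights and 11 without control 3, none of them a member. Median centring moved the median of all differences to -0.11 from -0.035. The cause of these changes was not tested. No paired analysis was possible because replicate numbers were given in the order of the samples and pair nothing across groups. With 4 arrays per group, the main probe sets of Cav1, Cav2 and Cavin1 have intervals narrower than that of Cav3, and the dim Cav2 probe set is limited by its signal.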
